A study of Mus musculus with 11 samples.

Results

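Nuclear receptors other than the classical steroid receptors were followed in the adrenal glands of male mice without and with testes. The set comprised 32 of the 23337 gene symbols in the count table: the thyroid hormone receptor alpha gene Thra, the vitamin D receptor gene Vdr, retinoic acid and retinoid X receptors, PPARs, LXRs, the bile acid receptor gene Nr1h4, the xenobiotic receptors, the REV-ERB and ROR receptors, and orphan receptors. They were taken as a gene family by name, not by their measured values, and 25 of the 32 had enough counts to be tested. The samples were whole adrenal glands of male Hsd:Athymic Nude-Foxn1nu mice, 6 from the ORX group, whose treatment label is orchiectomy (removal of the testes), and 5 from the INTACT group, which kept them. Mice of both groups were 5 to 6 weeks old when VCaP cells, which derive from a human prostate cancer, were inoculated at study week 0. They were allocated to ORX or INTACT at study week 7 and killed at study week 15, so every sample came from a mouse inoculated with tumour cells. Tumour burden did not enter the comparison. Athymic nude mice lack a thymus and most T cells. The comparison, ORX against INTACT, asks how the adrenal transcriptome differs in mice without testes.

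Nuclear receptors are transcription factors that bind DNA through a zinc finger domain, and most also carry a pocket for a small lipid-soluble ligand. Thyroid hormone, retinoic acid, vitamin D, PPAR, LXR and FXR receptors bind DNA as pairs with a retinoid X receptor, while several orphan receptors, for which no physiological ligand is settled, bind alone or as pairs of themselves. Their output depends on coactivators and corepressors. In the adrenal cortex, lipid-sensing receptors bear on cholesterol handling, the substrate supply for steroid synthesis.

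Each library held 12539860 to 14725251 counts in ORX and 11368447 to 15029582 in INTACT, and levels are given as CPM, the count of a gene scaled to a common library total after TMM normalization. The adrenal identity of the samples was visible in cortical markers: the summed level of 12 zona fasciculata genes was 64670 to 97629 CPM in ORX and 36541 to 90478 CPM in INTACT. Other tissues and zones differed between libraries. The sum over 25 medulla markers was 8203 to 19410 CPM in ORX and 14429 to 33889 CPM in INTACT, with 5 of 25 lower in ORX by edgeR's quasi-likelihood test at an adjusted p under 0.05. DESeq2 called 10 of these 25 markers and limma voom 13. An unadjusted edgeR p under 0.05 was found for 13, each lower in ORX, and 22 of the 25 fitted values were below 0. By edgeR's adjusted test 4 of the 12 fasciculata markers were higher in ORX, and 5 of 14 zona glomerulosa markers were lower. Over all tested genes 3.03% were higher and 3.18% lower. The sum over 18 fat markers was 5088 to 20652 CPM in ORX and 7535 to 22578 CPM in INTACT, with none at 0. None of the 18 passed in edgeR or DESeq2 and 1 in limma voom, 2 had an unadjusted edgeR p under 0.05, and 17 fitted values were below 0. Over all tested genes limma voom called 14.5%, and 22.9% had an unadjusted edgeR p under 0.05. DESeq2 called 10.6% of all the genes it tested. The X-zone is the inner cortical zone of young mice that androgen removes in males, and its 3 markers, of which Thrb is 1, summed to 831 to 2911 CPM in ORX and 28.7 to 40.2 CPM in INTACT. Liver markers summed to 12.4 to 351 CPM in ORX, highest in ORX 6 and ORX 4, and to 7.02 to 88.5 CPM in INTACT, highest in INTACT 1. Kidney markers summed to 0.574 to 3.47 CPM in ORX and 0.850 to 3.44 CPM in INTACT, and Umod, Slc12a3, Nphs1 and Cdh16 had no count in any library. ORX 6 stood apart in transcript length, with a median log2 deviation from the other ORX libraries of 0.68 in the shortest transcripts and -0.64 in the longest (the end deciles by exon length), against -0.31 to 0.22 and -0.16 to 0.28 in the other 10 libraries, each set against its own group. INTACT 3 had the highest fat sum and the lowest fasciculata sum.

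Of the 25 receptors tested, 1 was higher in ORX (Nr1h4, which encodes FXR) and 1 was lower (Vdr). The other 23 did not pass the threshold, a Benjamini-Hochberg adjusted p under 0.05 over all 14139 genes tested by edgeR. The 2 calls are 8% of the tested receptors, against 6.21% of all tested genes (878 genes), 3.03% higher and 3.18% lower, so the receptor family as a whole was called at about the background rate. An unadjusted p under 0.05 was found for 5 of 25 receptors (20%), against 22.9% of all genes. The median log2 fold change was -0.13 over the 25 receptors and 0.01 over all tested genes, with 7 receptors fitted above 0 and 18 below. For 13 of the 25 (52%, against 48.8% of all genes) the fitted log2 fold change was within 0.25 of 0. The standard errors of the receptors' log2 fold changes ran from 0.13 to 0.45, so the receptors differ widely in how small a change could have been seen.

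**Figure D1:**
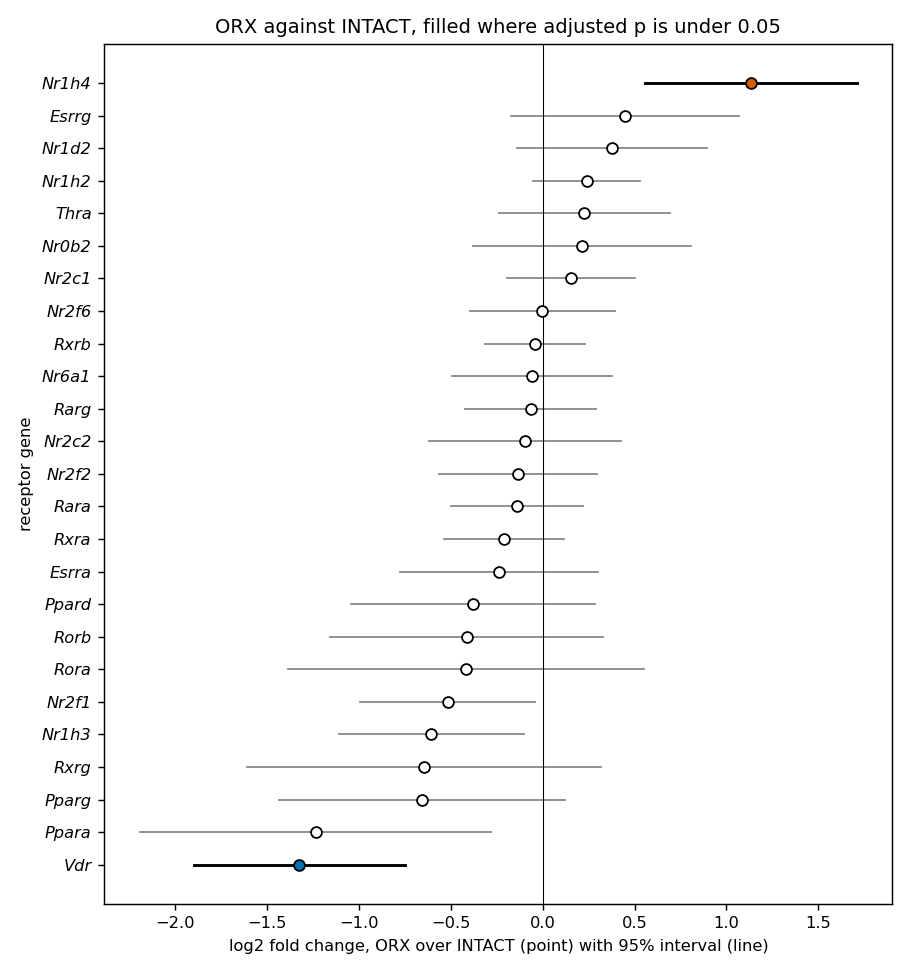
Log2 fold change of each tested receptor gene, ORX over INTACT, as a point with its 95% interval as a line. The filled points mark the 2 genes with an adjusted p under 0.05, Nr1h4 at 1.13 and Vdr at -1.32, and the intervals of most others span 0.

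A promoter window of each of the 2 receptors that passed the threshold is printed because the data turn on these genes. Each window runs from 250 bases before the RefSeq start of a transcript to 50 bases after it, 5′ to 3′ on the gene's strand (RefSeq, GRCm38.p6). Vdr lies on the minus strand of chromosome 15 (chr15:97854425-97910630, GRCm38) and the window is chr15:97908247-97908546. Nr1h4 lies on the minus strand of chromosome 10 (chr10:89454234-89533585) and the window is chr10:89506609-89506908. Both windows lie inside the span of their gene, downstream of its outermost annotated 5′ end, so each belongs to an inner start. Which start is used in the adrenal was not tested. Capitals mark a match to a nuclear receptor core motif on either strand: TGAACT, the reverse of AGTTCA, in Vdr, and TGACCT, the reverse of AGGTCA, in Nr1h4.
Vdr promoter: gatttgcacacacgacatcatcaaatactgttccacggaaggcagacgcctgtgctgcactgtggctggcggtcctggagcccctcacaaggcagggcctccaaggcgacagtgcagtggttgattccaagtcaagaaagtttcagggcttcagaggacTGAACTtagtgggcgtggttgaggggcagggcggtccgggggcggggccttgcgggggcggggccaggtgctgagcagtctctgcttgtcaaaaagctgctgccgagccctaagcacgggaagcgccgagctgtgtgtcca
Nr1h4 promoter: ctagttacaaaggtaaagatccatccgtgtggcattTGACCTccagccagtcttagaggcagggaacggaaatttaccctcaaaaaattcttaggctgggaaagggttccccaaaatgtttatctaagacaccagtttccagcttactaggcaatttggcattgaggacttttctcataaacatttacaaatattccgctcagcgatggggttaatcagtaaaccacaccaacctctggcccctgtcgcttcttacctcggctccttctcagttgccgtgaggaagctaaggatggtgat
Counted from the start site, the Vdr match begins at -91 and the Nr1h4 match at -214. AGTTCA, on either strand, was present in 14.0% of all 32851 RefSeq promoter windows and AGGTCA in 16.3%. Among the 48 windows of the 30 receptors that the promoter table held, AGTTCA was in 6 (12.5%) and AGGTCA in 9 (18.8%), from 8 receptors (Nr1d2, Nr1h4, Nr6a1, Pparg, Rara, Rarg, Rxra and Rxrg). The longer AAGGTCA, which contains AGGTCA and is the site that ERR and ROR receptors bind alone, was in 3 of 48 windows (6.25%), those of Nr6a1, Rxra and Rxrg, against 4.72% of all windows. AGAACA, the core bound by androgen and glucocorticoid receptors, was in 2 of 48 (4.17%), those of Esrrb and Nr1i2, against 19.0% of all windows. A match is a string of letters in a window and does not show binding. The Vdr window is GC-rich (61.3%) and the Nr1h4 window is not (45.7%), against a median of 52.7% over all windows.

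Vdr, the receptor for the active form of vitamin D, fell to 16.1 ± 6.44 CPM in ORX (SD, n = 6), against 40.2 ± 10.9 CPM in INTACT (SD, n = 5). The ORX libraries ran from 9.69 CPM through a median of 14.7 to 26.2 CPM, and INTACT 1 to 5 had 57.9, 42.0, 29.1, 34.5 and 37.4 CPM. Every ORX library was below every INTACT library. Vdr was the only one of the 25 tested receptors whose groups did not overlap, a pattern shown by 5.28% of all tested genes and, with ORX lower, by 2.36%. The log2 fold change was -1.32 ± 0.27 (SE; 95% interval -1.90 to -0.75), a fall by 60.0%, with an adjusted p of 0.0116 in edgeR (quasi-likelihood F-test, Benjamini-Hochberg). The call held without each library in turn, with log2 fold changes of -1.52 to -1.15.

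The highest ORX value of Vdr, in ORX 3, and the highest INTACT value, in INTACT 1, were in the libraries with the highest medulla sum of each group. These sums were 19410 CPM in ORX 3 and 33889 CPM in INTACT 1. INTACT 3, 4 and 5 had lower medulla sums than ORX 3 (14429, 18220 and 19023 CPM) and higher Vdr (29.1, 34.5 and 37.4 CPM, against 26.2 CPM). INTACT 2 had a medulla sum of 20961 CPM and 42.0 CPM of Vdr. Within INTACT the order of the libraries was the same for the medulla sum and for Vdr (INTACT 1, 2, 5, 4 and 3). Within ORX the orders differed only in ORX 4 and ORX 6. These had medulla sums of 12839 and 16598 CPM and 20.5 and 17.0 CPM of Vdr. The medulla score is the mean log2 CPM of the 25 markers in a library, not their sum. With this score as a covariate, the edgeR log2 fold change of Vdr was -0.36 and its Benjamini-Hochberg adjusted p was 0.552. Over all genes only 83 calls were left in that fit. Fitted values of 22 of the 25 markers were below 0, so the score and the group cannot be fully told apart there. In whole glands, fewer cells of a type and less RNA per cell cannot be told apart. Of 10 listed vitamin D targets, 2 could be tested and none passed: Cyp27b1, the enzyme that activates vitamin D, had a log2 fold change of -0.59 ± 0.40, and Spp1, which encodes osteopontin, had -0.19 ± 0.43. The list does not separate genes that the receptor induces from genes that it represses.

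Nr1h4, which encodes the bile acid receptor FXR, rose to 33.0 ± 13 CPM in ORX (SD, n = 6), against 15.0 ± 2.97 CPM in INTACT (SD, n = 5). The ORX libraries ran from 17.2 CPM through a median of 33.0 to 52.1 CPM, and INTACT 1 to 5 had 15.3, 11.9, 15.9, 19.4 and 12.7 CPM. The groups overlapped only through ORX 3, which lay below INTACT 4. All 6 ORX libraries were above the INTACT median. The log2 fold change was 1.13 ± 0.27 (SE; 95% interval 0.56 to 1.71), a 2.19-fold rise, with an adjusted p of 0.0261 by edgeR with Benjamini-Hochberg adjustment.

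The lowest ORX levels of Nr1h4 were in ORX 3 and ORX 6, the libraries with the lowest X-zone sums of the ORX group (831 and 913 CPM). ORX 1, with the highest X-zone sum (2911 CPM), had 41.9 CPM of Nr1h4. The highest Nr1h4 level, 52.1 CPM, was in ORX 2, which had an X-zone sum of 1523 CPM. ORX 4 and ORX 5 had higher X-zone sums (2011 and 1625 CPM) and less Nr1h4 (33.4 and 32.5 CPM). The part of the X-zone in the result was not tested. The liver sum was 12.4 CPM in ORX 2, which had the highest Nr1h4 level, and 351 CPM in ORX 6, which had 20.7 CPM of Nr1h4, and its part in the result was not tested. The call ended when any of ORX 1, 2 or 5 or INTACT 1, 2 or 5 was left out, with an adjusted p of up to 0.0755 by edgeR and log2 fold changes of 0.94 to 1.14. It also ended with the medulla score as a covariate (log2 fold change 0.13, edgeR adjusted p 0.863) and with the fat score as a covariate (0.83, edgeR adjusted p 0.117).

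The FXR pathway beyond the receptor was mostly below the detection filter. Of 9 listed FXR targets 1 was tested: Abcb4, a phospholipid transporter, had a log2 fold change of 0.32 ± 0.22. Slc10a2, the ileal bile acid transporter, had no count in any library. Nr0b2 encodes SHP, a receptor without a DNA-binding domain that FXR induces in liver. It had 14.2 CPM at the lowest, 37.4 CPM at the median and 48.2 CPM at the highest in ORX, and 19.9, 36.02, 35.1, 24.7 and 39.0 CPM in INTACT 1 to 5. These ranges overlapped, and the log2 fold change of Nr0b2 was 0.21 ± 0.27 with an edgeR adjusted p of 0.689.

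**Figure D2:**
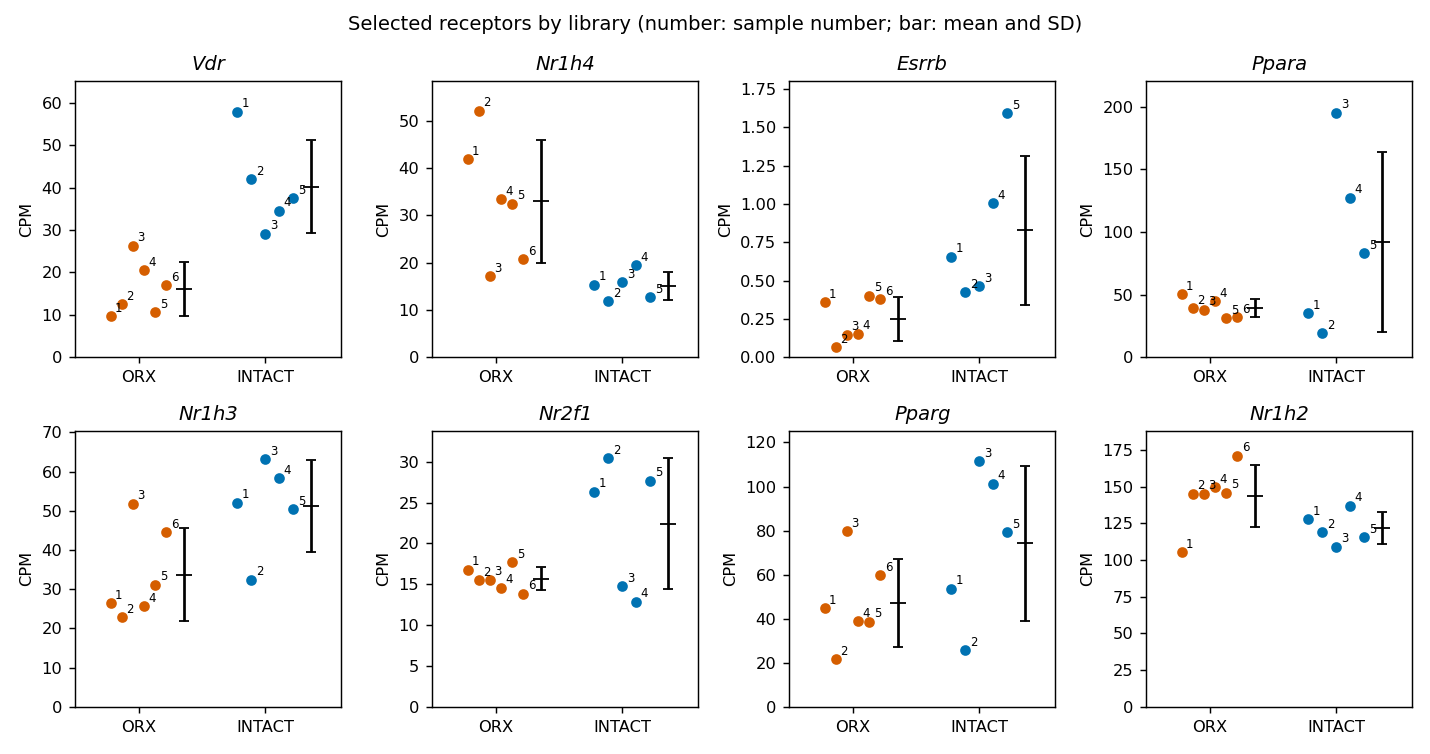
CPM of 8 receptor genes in each library, ORX on the left and INTACT on the right, with the sample number at each point and a bar for the mean and SD. Every ORX value of Vdr and of Esrrb is below every INTACT value. The raw counts of Esrrb tie at 5 in ORX 1, ORX 5, ORX 6 and INTACT 2. Nr1h4 overlaps only through ORX 3, and 3 INTACT libraries of Ppara (83.0 to 195 CPM) lie above the 6 ORX values (31.2 to 50.2 CPM).

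None of the thyroid hormone and retinoid receptors of the set (Thra, Rara, Rarg, Rxra, Rxrb and Rxrg) passed the threshold in edgeR, DESeq2 or limma voom, and none had an unadjusted edgeR p under 0.05. Thra, the alpha receptor for thyroid hormone, had 54.1 to 106 CPM in ORX with a median of 92.2 CPM, and 73.8, 56.4, 62.3, 109 and 63.5 CPM in INTACT 1 to 5. Its log2 fold change was 0.23 ± 0.22. Thra shares 263 exonic bases with Nr1d1 on the other strand, and the strand setting of the counting is not given in the sources used here. Thrb, the beta receptor and an X-zone marker that is no member of this set, rose to 77.7 ± 35.8 CPM in ORX (SD, n = 6), against 29.8 ± 5.71 CPM in INTACT (SD, n = 5). Its log2 fold change was 1.38 ± 0.31 with an edgeR adjusted p of 0.0198, a call lost without ORX 2, INTACT 1, INTACT 2 or INTACT 5 (adjusted p up to 0.0555) and with the medulla score (log2 fold change 0.09) or the fat score (1.05, edgeR adjusted p 0.0997) as a covariate. In the list of thyroid hormone targets and deiodinases 1 of 14 tested genes fell and none rose, with a median log2 fold change of -0.38. Over all tested genes 3.18% were lower and 3.03% higher. The listed gene that fell was Hr, a corepressor of the thyroid hormone and vitamin D receptors, with 9.66 ± 1.92 CPM in ORX and 21.7 ± 7.34 CPM in INTACT. The groups of Hr did not overlap, and its log2 fold change was -1.17 ± 0.23 with an edgeR adjusted p of 0.00958.

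Rara and Rarg, receptors for retinoic acid, had log2 fold changes of -0.14 ± 0.17 and -0.06 ± 0.16. Rxra and Rxrb, the partners that most of the ligand-activated receptors need for DNA binding, had -0.21 ± 0.15 (95% interval -0.54 to 0.12) and -0.04 ± 0.13 (-0.31 to 0.23). Both intervals span 0 and leave out a change as large as that of Vdr. Rxrg, the gamma form, had 1.83 CPM at the lowest, 3.48 CPM at the median and 7.39 CPM at the highest in ORX, and 3.28, 2.21, 12.4, 6.78 and 6.29 CPM in INTACT 1 to 5. The groups overlapped, and its log2 fold change was -0.64 ± 0.45 (edgeR adjusted p 0.420). Among retinoic acid targets 1 of 7 tested genes fell, against 3.18% of all tested genes. This target was Tgm2, a transglutaminase, with 120 ± 33.7 CPM in ORX and 224 ± 40.8 CPM in INTACT. Its log2 fold change was -0.90 ± 0.20 with an edgeR adjusted p of 0.0173, and the call ended without INTACT 5 (edgeR adjusted p 0.0544) and with the medulla score as a covariate (log2 fold change -0.30).

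The PPARs sense fatty acids: Ppara drives fatty acid oxidation, Pparg fat storage, and Ppard is broadly expressed. Ppara (chr15:85734983-85802819, GRCm38) had the largest fold change of the 23 receptors that did not pass. It had 31.2 CPM at the lowest, 38.4 CPM at the median and 50.2 CPM at the highest in ORX, and 35.2, 18.9, 195, 127 and 83.0 CPM in INTACT 1 to 5. The ORX libraries were close together, and the INTACT libraries were either within or below the ORX range (INTACT 1 and 2) or far above it (INTACT 3, 4 and 5). The log2 fold change was -1.23 ± 0.44, with an edgeR adjusted p of 0.117. Ppara passed with DESeq2 (Benjamini-Hochberg adjusted p 0.0450) and in edgeR without INTACT 2 (-1.50, adjusted p 0.0332). It was at -0.77 without INTACT 3 (edgeR adjusted p 0.246) and at -0.59 in limma voom (adjusted p 0.367).

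Pparg had 21.5 CPM at the lowest, 41.9 CPM at the median and 79.7 CPM at the highest in ORX, and 53.6, 25.7, 112, 101 and 79.3 CPM in INTACT 1 to 5. The highest value of each group was in the library with the highest fat sum of that group, ORX 3 and INTACT 3, and the lowest in the library with the lowest fat sum, ORX 2 and INTACT 2. Its log2 fold change was -0.65 ± 0.36 (edgeR adjusted p 0.304). With the fat score as a covariate the log2 fold change was -0.03 for Pparg and -0.49 for Ppara. Ppard had 47.2 to 145 CPM in ORX and 57.7 to 185 CPM in INTACT, lowest in INTACT 3 and highest in INTACT 2, and its log2 fold change was -0.38 ± 0.31.

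Of 24 tested PPAR targets 2 rose and 1 fell in edgeR, against 3.03% of all tested genes higher and 3.18% lower. The median log2 fold change was -0.47 over the list against 0.01 over all genes. Fitted values were below 0 for 20 of the 24. An unadjusted edgeR p under 0.05 was found for 13 (11 lower and 2 higher), against 22.9% of all tested genes. DESeq2 and limma voom each called 7, against 10.6% and 14.5% of all the genes they tested. Cpt1a, which carries long-chain fatty acids into mitochondria, averaged 574 ± 93.7 CPM in ORX and 337 ± 68.1 CPM in INTACT. Its log2 fold change was 0.77 ± 0.17 with an edgeR adjusted p of 0.0219. Vnn1, a pantetheinase, averaged 111 ± 25.8 CPM in ORX and 63.4 ± 17.0 CPM in INTACT, with a log2 fold change of 0.81 ± 0.21 and an edgeR adjusted p of 0.0382. The Cpt1a call was lost without ORX 2, 4 or 5 (edgeR adjusted p up to 0.0571). The Vnn1 call was lost without ORX 1, 2, 4 or 5 or INTACT 1, 2 or 3 (up to 0.0909). Pdk4, the kinase that slows pyruvate oxidation, fell to 153 ± 24 CPM in ORX, against 515 ± 444 CPM in INTACT, where INTACT 3 alone had 1255 CPM. Its log2 fold change was -1.76 ± 0.41 (edgeR adjusted p 0.0261), a call lost without ORX 1, 2 or 5 or INTACT 5 (adjusted p up to 0.0643), and it was -1.13 without INTACT 3. With the fat score as a covariate it was -1.11 and the call was lost (edgeR adjusted p 0.181).

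**Figure D3:**
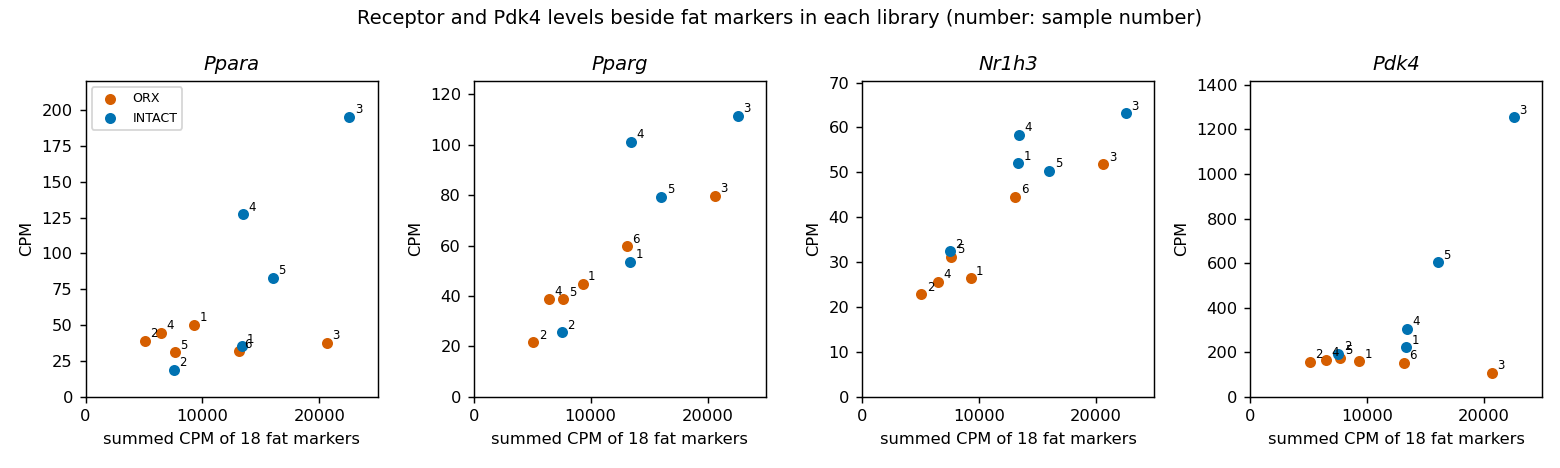
CPM of Ppara, Pparg, Nr1h3 and the PPAR target Pdk4 against the summed CPM of 18 fat markers, 1 point per library with its sample number. The fat sum ran from 5088 to 20652 CPM in ORX and 7535 to 22578 CPM in INTACT, and Pparg was highest in the library with the highest sum of each group. In Ppara and Pdk4, INTACT 3 is the highest point, and ORX 3 (fat sum 20652 CPM) had 37.7 CPM of Ppara and 107 CPM of Pdk4. Among the fat markers, ORX 3 and INTACT 3 had 1012 and 1014 CPM of Adipoq, and 70.7 and 644 CPM of Ucp1. ORX 5 and ORX 6, with 517 and 550 CPM of Ucp1, had 31.2 and 31.8 CPM of Ppara.

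The LXRs respond to oxysterols and induce cholesterol efflux and fatty acid synthesis. Nr1h3, which encodes LXR alpha (chr2:91184061-91202834, GRCm38), had 22.8 CPM at the lowest, 28.8 CPM at the median and 51.8 CPM at the highest in ORX, and 52.1, 32.5, 63.1, 58.3 and 50.3 CPM in INTACT 1 to 5. ORX 3 and ORX 6, the ORX libraries with the highest fat sums, had the highest Nr1h3 of their group, and INTACT 2, with the lowest fat sum of its group, had the lowest. The log2 fold change was -0.60 ± 0.23, with an edgeR adjusted p of 0.145. Nr1h3 passed in edgeR without ORX 3 (adjusted p 0.0465) and in limma voom with sample weights (adjusted p 0.0228). With the fat score as a covariate it was at -0.30 (edgeR adjusted p 0.225) and at -0.22 with the medulla score (edgeR adjusted p 0.762). Nr1h2, which encodes the broadly expressed LXR beta, had 105 CPM at the lowest, 145 CPM at the median and 171 CPM at the highest in ORX, and 128, 119, 109, 137 and 116 CPM in INTACT 1 to 5. All ORX libraries but ORX 1 were above every INTACT library, and the log2 fold change was 0.24 ± 0.13 (edgeR adjusted p 0.313). Of 15 tested LXR targets none passed in edgeR, 1 had an unadjusted p under 0.05, and DESeq2 and limma voom each called 1. Over all tested genes edgeR called 6.21%, and 22.9% had an unadjusted edgeR p under 0.05. DESeq2 called 10.6% of all the genes it tested and limma voom 14.5%. The median log2 fold change of the 15 LXR targets was -0.28. Abca1, the cholesterol efflux transporter, had 0.19 ± 0.25, Srebf1, the lipogenic regulator, -0.14 ± 0.22, and Fasn, the fatty acid synthase, -0.87 ± 0.45.

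REV-ERB and ROR receptors compete for the same sites in the clock, where REV-ERBs repress and RORs activate. Nr1d2, which encodes REV-ERB beta, had 68.4 CPM at the lowest, 143 CPM at the median and 186 CPM at the highest in ORX, and 94.0, 81.6, 126, 126 and 101 CPM in INTACT 1 to 5. ORX 5 and ORX 6 were lowest within ORX, the groups overlapped, and the log2 fold change was 0.38 ± 0.24 (edgeR adjusted p 0.373). Its paralog Nr1d1, not a member of the set, had 145 to 447 CPM in ORX and 185 to 386 CPM in INTACT, and its log2 fold change was 0.02 ± 0.30. Rora had 1.43 to 11.2 CPM in ORX, lowest in ORX 6, and 4.64 to 18.3 CPM in INTACT, with a log2 fold change of -0.42 ± 0.45. Rorb was near the detection filter, with 0.452 to 1.77 CPM in ORX and 1.02 to 2.12 CPM in INTACT. The list for these receptors also holds other clock genes, such as Per1 and Dbp. None of its 16 tested genes passed in edgeR, where 3 had an unadjusted p under 0.05, while DESeq2 called 2 and limma voom 3. Over all tested genes 22.9% had an unadjusted edgeR p under 0.05. DESeq2 called 10.6% of all the genes it tested and limma voom 14.5%. Closest was Clock, a core activator of the clock, at -0.91 ± 0.25 with an edgeR adjusted p of 0.05004. Its partner Arntl had -1.41 ± 0.57 (edgeR adjusted p 0.160). The labels give no time of day.

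Among the orphan receptors, Nr2f1, which encodes COUP-TFI, had 13.9 CPM at the lowest, 15.5 CPM at the median and 17.7 CPM at the highest in ORX, and 26.3, 30.4, 14.8, 12.9 and 27.7 CPM in INTACT 1 to 5. INTACT 3 was within the ORX range, INTACT 4 below it and the other 3 INTACT libraries well above it. The log2 fold change was -0.52 ± 0.22, with an edgeR adjusted p of 0.183. Nr2f2, which encodes COUP-TFII, a receptor of stromal and steroidogenic precursor cells, had -0.13 ± 0.20. Nr2f6 averaged 62.9 CPM in both groups, with an SD of 19.97 in ORX and 2.92 in INTACT and a 95% interval of -0.40 to 0.40. ORX 6 was the highest library, at 100.1 CPM. Nr2c1 and Nr2c2, the testicular receptors TR2 and TR4, had 0.15 ± 0.16 and -0.09 ± 0.24, and Nr6a1, the germ cell nuclear factor, -0.06 ± 0.20. Antisense partners share 1622 of the 2983 exonic bases of Nr2f6 (Ocel1) and 4590 of the 14935 of Nr2c2 (Mrps25), so both counts may hold reads of a partner.

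The oestrogen-related receptors (ERRs) control mitochondrial genes and bind no known natural oestrogen. Esrrg had 12.3 CPM at the lowest, 30.3 CPM at the median and 39.1 CPM at the highest in ORX, and 14.9, 23.8, 13.4, 32.2 and 20.9 CPM in INTACT 1 to 5. ORX 6 was the lowest library of all, the groups overlapped, and the log2 fold change was 0.45 ± 0.29 (edgeR adjusted p 0.383). Esrra had 37.7 to 63.0 CPM in ORX and 25.5 to 79.9 CPM in INTACT, with a log2 fold change of -0.23 ± 0.25. Of 17 tested ERR targets 1 fell and none rose, against 3.18% of all tested genes lower and 3.03% higher. The target that fell was Perm1, listed under the older symbol 2310042D19Rik, a muscle regulator of PGC-1 and ERR targets. It had 3.63 ± 1.49 CPM in ORX and 18.2 ± 11.7 CPM in INTACT, with a log2 fold change of -2.33 ± 0.42 and an edgeR adjusted p of 0.00618. The respiratory chain and citrate cycle genes of the list did not pass in edgeR or DESeq2, and limma voom called 1 of them, Mdh2, a malate dehydrogenase. Log2 fold changes in edgeR were -0.30 ± 0.17 for Mdh2, -0.41 ± 0.19 for Cs, -0.53 ± 0.22 for Idh3a and -0.05 ± 0.34 for Cycs.

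Esrrb, the third ERR, was below the detection filter and was singled out after its values were seen. Its counts were 20 over the 6 ORX libraries and 54 over the 5 INTACT libraries. In CPM it had 0.0649 at the lowest, 0.256 at the median and 0.400 at the highest in ORX, and 0.656, 0.425, 0.464, 1.004 and 1.59 in INTACT 1 to 5. The CPM of the groups did not overlap, although 3 of the 6 ORX values lay below the level that 3 counts give in a library (0.195 to 0.255 CPM). As raw counts the groups met, with 5 counts in each of ORX 1, ORX 5, ORX 6 and INTACT 2. DESeq2, which kept the gene, gave a log2 fold change of -1.75 with a Benjamini-Hochberg adjusted p of 0.0444, and edgeR without a filter gave -1.72 with an adjusted p of 0.0735.

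The other 6 receptors that could not be tested were nearly silent. Nr1i2 and Nr1i3, the xenobiotic receptors PXR and CAR of liver, had 9 and 21 counts in all over the ORX libraries and 3 and 1 over the INTACT libraries. Of the 21 counts of Nr1i3, 13 were in ORX 6, the library with the highest liver sum (351 CPM), and 3304 of its 4414 exonic bases are shared with Tomm40l on the other strand. Hnf4a, a master regulator of liver, had 32 counts in ORX, spread over all 6 libraries, and 9 in INTACT, all of them in INTACT 1. The Hnf4a counts were highest in ORX 4 (13 counts) and ORX 6 (11 counts), and these 2 libraries and INTACT 1 also had the highest liver sums of their groups. The part of liver RNA in these counts was not tested. Hnf4g had 1 count in each group, Nr2e3, a photoreceptor gene, had 1 in ORX and none in INTACT, and Nr2e1, a gene of neural stem cells, had none in any library, which allows a level of up to 0.195 to 0.255 CPM per library from counting error alone.

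Among PXR and CAR targets, 6 of 14 were tested, 1 rose and 1 fell in edgeR, limma voom called 5, and DESeq2 called 5 of the list, among them Cyp2b10, which edgeR's filter removed. Of all the genes each tested, edgeR called 6.21%, limma voom 14.5% and DESeq2 10.6%. Abcb1a, a drug efflux pump, averaged 58.4 ± 11.7 CPM in ORX and 35.0 ± 7.13 CPM in INTACT, with a log2 fold change of 0.74 ± 0.18 and an edgeR adjusted p of 0.0322, a call lost without ORX 1, 2, 4 or 5 or INTACT 1, 3, 4 or 5 (adjusted p up to 0.0874). Aldh1a1, which makes retinoic acid, averaged 316 ± 228 CPM in ORX and 984 ± 227 CPM in INTACT without overlap, with a log2 fold change of -1.64 ± 0.38 and an edgeR adjusted p of 0.0235. That call was lost without ORX 5, INTACT 2 or INTACT 5 (edgeR adjusted p up to 0.0605).

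Over the 9 target lists, 8 of 102 tested genes passed (7.84%, against 6.21% of all genes), 3 higher and 5 lower. None of these 8 passed in edgeR with the medulla score as a covariate, where 1 other target, the clock repressor Nfil3, did. In that fit the log2 fold changes were -1.30 for Hr, -2.63 for Pdk4, -2.03 for Perm1 (2310042D19Rik), 0.73 for Abcb1a and 0.68 for Cpt1a, and they were 0.36 for Vnn1, -0.30 for Tgm2 and -0.59 for Aldh1a1. With the fat score as a covariate the calls of Cpt1a, Vnn1, Abcb1a and Pdk4 were lost, at 0.64, 0.67, 0.61 and -1.11 on the log2 scale. Of the 24 coregulators 1 fell and none rose, against 3.18% of all tested genes lower and 3.03% higher. The median log2 fold change of the coregulators was -0.28. Ppargc1b, which encodes PGC-1 beta, a coactivator of ERRs and PPARs, fell to 4.08 ± 1.81 CPM in ORX (SD, n = 6), against 17.2 ± 10.7 CPM in INTACT (SD, n = 5). INTACT 2, at 3.82 CPM, was within the ORX range of 2.47 to 6.47 CPM, and the other INTACT libraries had 10.1 to 29.5 CPM. The log2 fold change was -2.07 ± 0.45 with an edgeR adjusted p of 0.0175, and the call held without each library in turn. It ended with the fat score as a covariate (log2 fold change -1.44, edgeR adjusted p 0.103) and with the medulla score (-2.60, edgeR adjusted p 0.128).

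For context from the same superfamily, 2 of 15 other tested nuclear receptors rose, Thrb and Nr0b1, against 3.03% of all tested genes. Nr0b1, which encodes DAX1, an orphan relative of SHP expressed in the adrenal cortex, had 32.1 ± 8.24 CPM in ORX and 3.61 ± 1.41 CPM in INTACT, a log2 fold change of 3.15 ± 0.29 with an edgeR adjusted p of 4.1e-05. Nr5a1, which encodes SF-1, the regulator of steroidogenic cell identity, had 1274 ± 188 CPM in ORX and 943 ± 442 CPM in INTACT, and its log2 fold change was 0.43 ± 0.29 (edgeR adjusted p 0.406).

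Levels of different receptors were set side by side as CPM per kilobase of exon. In ORX the order began with Nr1h2 at 42.8 ± 6.32, Nr0b2 at 31.7 ± 10.8, Nr1d2 at 25.4, Nr2f6 at 21.1, Thra at 18.5 and Rxra at 16.6 CPM per kilobase. In INTACT, Nr1h2 at 36.3 ± 3.24 and Nr0b2 at 27.3 ± 7.24 again came first, followed by Pparg at 25.2 ± 11.9 and Ppara at 23.96 ± 18.7. In ORX, Pparg (15.99) was at rank 7 and Ppara (10.2) at rank 15. Nr1h4 was at rank 9 in ORX, at 14.3 ± 5.65 CPM per kilobase, and at rank 17 in INTACT, at 6.53 ± 1.29. Vdr was at rank 20 in ORX, at 2.84 ± 1.14 CPM per kilobase, and at rank 16 in INTACT, at 7.11 ± 1.94. Within ORX, every receptor's range over libraries overlapped that of its neighbour in the order except at 1 step, between Rara (10.02) and Esrrg (4.62). The ranks are a description, and neighbours in the order were not tested against each other.

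**Figure D4:**
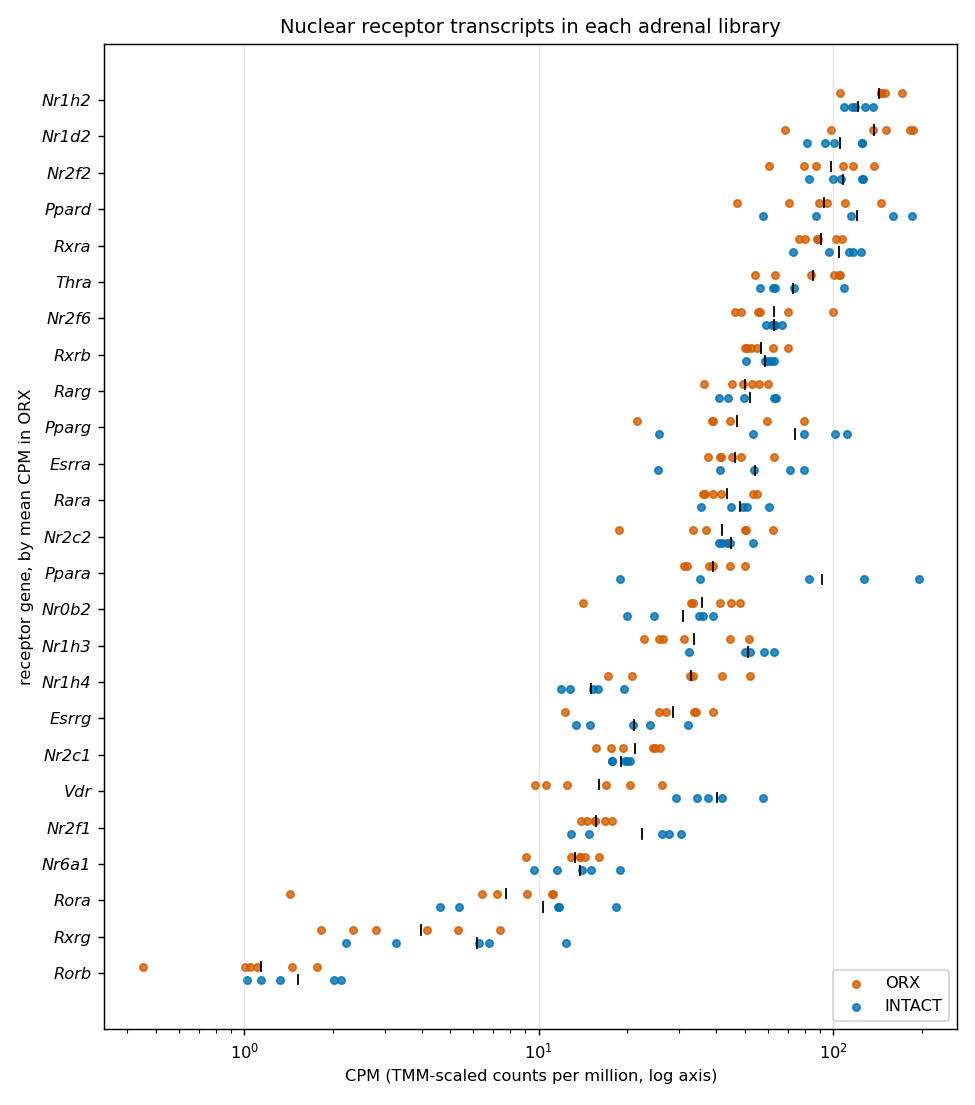
CPM of each tested receptor gene in each library on a log axis, with ORX above INTACT in each row and a black tick at the group mean. Values are not scaled by gene length, so rows show the spread between libraries and the overlap of the groups, which is complete or partial for every gene but Vdr.

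The balance between related receptors was compared within each library as the log2 ratio of their counts, with 0.5 added to each count. Of 12 pairs none passed an exact two-sided permutation test over every assignment of the libraries, adjusted over the 12 pairs, and 2 had an unadjusted p under 0.05. The smallest p this design allows is 0.00216. The smallest p was that of Nr1h3 over Nr1h2, LXR alpha over LXR beta, with a mean of -2.14 ± 0.43 in ORX and -1.28 ± 0.39 in INTACT, a difference of -0.86 (exact permutation p 0.0108, adjusted 0.117). The ratio was -2.67 to -1.48 in ORX and -1.87 to -0.79 in INTACT, so the groups overlapped. Thrb over Thra was -0.24 ± 0.63 in ORX and -1.27 ± 0.22 in INTACT, a difference of 1.02 (exact permutation p 0.0195, adjusted 0.117), again with overlap. Both passed without ORX 3, at an adjusted exact permutation p of 0.0476. The ratio of Ppara to Ppard ran from -1.94 to 0.09 in ORX and from -3.28 to 1.76 in INTACT, the widest range of the 12 pairs.

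**Figure D5:**
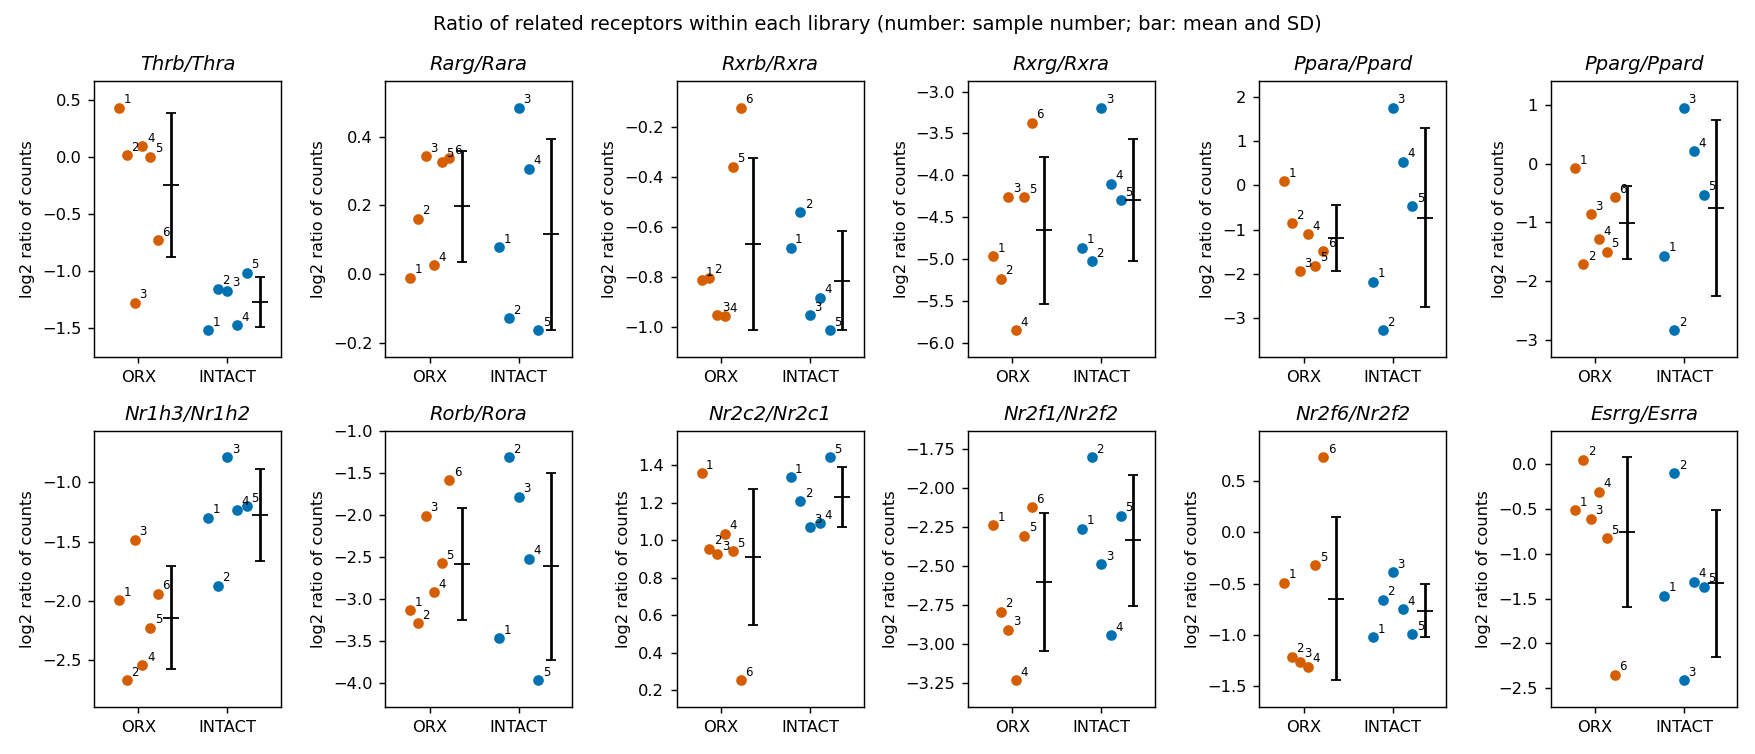
Log2 ratio of the counts of 12 pairs of related receptors in each library, ORX on the left and INTACT on the right, with the sample number at each point and a bar for the mean and SD. The means differ most in Thrb/Thra (1.02) and Nr1h3/Nr1h2 (-0.86), and the groups overlap in both.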

How the data were processed

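Adrenal RNA was sequenced with Illumina TruSeq chemistry from 300 ng of total RNA, per the labels' protocols, which name both a stranded and an RNA v2 guide. As deposited, the values are unnormalized counts of reads, listed by gene symbol. Named in the submitters' processing notes are mm10, Subread 1.5.1 and bcl2fastq 1.8.4. Nothing used here states the annotation, the strand setting or how reads matching several genes were counted. The table held 2 identical copies of itself and the first was used; 18746 of 23337 symbols had a count.

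Counts of 6 ORX and 5 INTACT samples were filtered with filterByExpr (minimum count 10, minimum total 15), leaving 14139 genes with 99.9% of the counts. They were TMM-scaled and tested with edgeR 4.0.16 (glmQLFit, glmQLFTest, R 4.3.3), ORX over INTACT without covariates, two-sided. The threshold was a Benjamini-Hochberg adjusted p of 0.05 over the 14139 genes. The biological coefficient of variation was 30.2%, and no 2 libraries of a group were as alike as sampling noise allows (chi-square per degree of freedom at least 25.5). Whether samples are separate mice is not stated, and the p-values cover the spread among samples, part of which may be technical. The labels give no batch. The code was tested on simulated data.

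Receptors and the 23 gene lists, of which 327 of 328 symbols were in the table (6 under an older name), were chosen with earlier results of these data known. Described in full were receptors past the threshold and the 8 others with the smallest p; of each pathway list, up to 4 genes past the threshold; and Thrb, Nr1d1, Nr5a1 and Nr0b1. Esrrb, and list genes named without passing, were chosen after their values were seen. Gene positions, exon lengths and overlaps are those of GENCODE M21 on GRCm38, and promoters those of RefSeq for GRCm38.p6, which held 30 of the 32 receptors. Genes that overlap another in antisense may hold its reads, which concerns Thra, Nr1i3, Nr2c2, Nr2f1, Nr2f2, Nr2f6, Esrra and Tgm2 among the genes named. Intervals and floors cover counting error or the spread between samples only.

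Alternatives were RLE and upper-quartile scaling, no filter, 1 CPM in 5 libraries, DESeq2 1.42.0, limma 3.58.1 voom with sample weights, the sample number as a block, leaving out each library or both INTACT 3 and ORX 6, a transcript length offset, and the medulla or fat score as a covariate. Each score was the mean log2 CPM of the listed markers in a library. For ratios a pseudocount of 2 was tried.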

Additional observations from a re-analysis of the deposited data

Results flagged for a closer look

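Of 76 sets of libraries, the ORX and the INTACT values of 38 genes, 1 held a library set apart from the rest of its group by a Dixon test at the 95% level, which chance gives in about 1 of 20 sets. Pdk4, the PPAR target that slows pyruvate oxidation, had 107 CPM in ORX 3, and the nearest ORX library had 152 CPM. ORX 3 is the ORX library with the highest sum of fat markers, 20652 CPM.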

How the results depend on the processing

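Against 2 receptors called, DESeq2 called 4 (adding Ppara and Esrrb), the fat covariate 1 (Vdr) and the medulla covariate 0; leaving out 1 library gave 1 to 3, 1 without ORX 1, 2 or 5 or INTACT 1 or 5 and 3 without ORX 3, and Vdr was in each of these sets. For all genes (878) the count was 1721 with DESeq2, 2056 with limma voom, 83 with the medulla covariate and 408 to 1280 without 1 library, 408 to 570 without ORX 1, 2, 4 or 5 or INTACT 1, 2 or 5. Coregulators (1) numbered 2 with DESeq2 and limma voom, 3 without INTACT 3 and ORX 6, 0 with the medulla or fat covariate and 1 to 2 without 1 library (2 without ORX 3 or INTACT 3). Receptor targets (8) numbered 19 with DESeq2, 21 with limma voom, 13 without INTACT 3 and ORX 6, 1 with the medulla covariate and 3 to 12 without 1 library, 3 to 5 without ORX 1, 2, 4 or 5 or INTACT 5. Receptor pair ratios past the threshold (0) numbered 0 to 2 without 1 library (2 without ORX 3). The cause of these shifts was not tested. Depth limits the 7 receptors below the filter, with at most 21 counts in a library.

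Sample numbers did not pair the libraries (correlations of same-numbered deviations -0.28 to 0.18). With the number as a block, 0 receptors, 416 genes and 9 targets were called, and Nr2c2 was at 0.029.

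Log2 fold changes turned sign only for receptors, and for ratios, that passed the threshold in neither fit; the cause was not tested. With the medulla covariate Rarg was at 0.077, Rxrb 0.081, Ppard 0.86, Nr1d2 -0.39, Nr2c1 -0.32, Nr2f6 0.32, Esrrg -0.31, Nr6a1 0.17, Nr0b2 -0.54 and Nr1d1 -0.80. With the fat covariate Rxrb was at 0.028, Rxrg 0.088, Nr2f6 0.066, Esrra 0.11 and Nr1d1 -0.090. With the length offset Nr2c2 was at 0.081, Nr6a1 0.11 and Nr1d1 -0.032. Without INTACT 3 and ORX 6 Nr2c2 was at 0.022, and the log2 ratios were 0.22 for Ppara/Ppard, 0.095 for Pparg/Ppard and -0.064 for Nr2f6/Nr2f2. Nr2f6 was at 0.013 with upper-quartile scaling and 0.0014 with the 1 CPM filter, and Nr1d1 at -0.0013 without a filter. Without 1 library Rarg ran from -0.14 to 0.015, Nr2c2 from -0.25 to 0.058, Nr2f6 from -0.18 to 0.063, Nr6a1 from -0.16 to 0.081 and Nr1d1 from -0.13 to 0.16. The ratios ran from -1.10 to 0.16 for Ppara/Ppard, -0.77 to 0.18 for Pparg/Ppard, -0.31 to 0.35 for Rorb/Rora and -0.16 to 0.25 for Nr2f6/Nr2f2.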
